A study of Homo sapiens with 12 samples.

Results

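The genes described here are the human RNA genes whose symbols end in -AS1, -AS2 or -AS3, the suffix given to antisense RNAs, as measured in RD cells with and without an siRNA against EHMT1. They were chosen by their symbols and by their counts: a gene was a member when at least 3 of the 6 libraries held 10 or more counts on the strand column that carries the gene's own strand. Of 61552 gene identifiers in the files, 1810 had such a symbol and 754 of those met the count rule (707 -AS1, 42 -AS2 and 5 -AS3). Each member was set beside its sense partner, the gene whose symbol stands before the suffix, which served only as a reference.

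An antisense RNA is transcribed from the DNA strand opposite a gene that usually codes for a protein. Some start beside the promoter of that gene and run away from it, some begin within it or beyond its end and run back across it, and the pair can share sequence as complementary RNA. Many are kept scarce by nuclear RNA decay, in which the RNA exosome and the termination machinery take part, while a few are abundant, stable, spliced and polyadenylated RNAs with their own functions.

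RD is an established line of human embryonal rhabdomyosarcoma cells, a childhood tumour with features of developing skeletal muscle. The control group had received scrambled siRNA, which matches no intended transcript (n = 3 libraries), and the other group an siRNA specific for EHMT1 (n = 3 libraries), each for 48 h before total RNA was taken; no other agent or genetic change is given for either group. EHMT1 (GLP) and EHMT2 (G9a) form an enzyme complex that methylates histone H3. All libraries come from this 1 cell line, so the values describe RD cells only, and the labels do not say that the 3 libraries of a group were separate cultures. The other 6 libraries of the series, from an experiment with SOX8 siRNA, were not analysed here.

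Column 4 of the files, the strand column used here, held 40472383 to 47538633 gene counts per library, and 3 counts, the floor below which a gene at 0 could still lie, corresponded to 0.0631 to 0.0741 CPM (counts scaled to the library's total). Scrambled replicate 2 stood apart from the other scrambled libraries on the first principal component of all genes, with a score of -33.6 against -16.1 and -11.4, while the EHMT1 siRNA libraries lay between 19.9 and 21.3. EHMT1 itself was at 128.8, 146.3 and 127.9 CPM in scrambled replicates 1, 2 and 3 and at 52.6, 52.7 and 56.7 CPM in EHMT1 siRNA replicates 1, 2 and 3, without overlap of the groups. It fell by 1.31 on the log2 scale (SE 0.064, edgeR adjusted p = 2.43e-09), which left 40.2% of the control level. In RNA from whole cultures, less RNA per cell and fewer cells carrying it cannot be told apart. Of 12 muscle lineage markers 10 were tested, and 4 rose (CHRNA1, CHRND, CHRNG and PAX7), beside 6.15% risen among all genes. MYOD1, MYOG, PAX3, DES, CDH15 and MYMK were not called. The summed level of the 12 was 1339 to 1517 CPM in scrambled and 1554 to 1628 CPM in EHMT1 siRNA libraries. Within that sum CHRNA1 had means of 604 CPM in scrambled and 678 CPM in EHMT1 siRNA libraries. Only 1 of the 12 was at 0 in every library. The summed level of 12 markers of blood, vessel, epithelial, liver, pigment and glial cells was 0.363 to 1.06 CPM in scrambled and 1.09 to 1.14 CPM in EHMT1 siRNA libraries, 1 of them was at 0 in every library, and neither of the 2 that could be tested passed the test. The part of these marker levels in the results below was not tested.

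Among the 1056 named genes outside the membership, 490 had no count in any library. Within it, 638 members held 10 or more counts in all 6 libraries and 29 in exactly 3. The count rule looked at no group, and only 1 member met it through the EHMT1 siRNA libraries alone and 0 through the scrambled ones alone. At the edge, 17 members had a third-highest count of 10, such as DHDDS-AS1 with 9, 4 and 15 counts in the scrambled and 11, 10 and 8 in the EHMT1 siRNA libraries, and FARP1-AS1 with 15, 12 and 6 against 10, 8 and 8. Just outside, 18 genes had a third-highest count of 9, among them AADACL2-AS1 with 12, 1 and 6 against 5, 11 and 9 counts and BRPF3-AS1 with 8, 0 and 11 against 9, 8 and 12.

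A partner was found for 740 of the 754 members, and since 34 members shared 17 of them, these were 723 partner genes. The other 14 carry the name of a cluster, a locus or a non-coding gene, as HOXB-AS1, TRG-AS1 and DIRC3-AS1 do. In the GENCODE 29 annotation, 222 antisense RNAs lay head-to-head with their partner (both 5′ ends on opposite strands within 1000 bases), 198 lay inside it, 140 overlapped its 3′ end, 118 its 5′ end and 50 spanned it. Head-to-head was set by strand and distance alone, whether the genes ran apart or overlapped. The other opposite-strand classes therefore hold only pairs whose starts lie further apart. In 8 further pairs the genes lay apart or, for FAM131B-AS2 alone, on 1 strand, and 4 could not be placed. Exons of the antisense RNA and the partner overlapped in 588 pairs, with a median overlap of 277 bases, and did not in 148.

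The members were a small share of the gene counts in these poly-A libraries. Antisense RNAs without a poly-A tail or with other symbols are outside this share. All 754 together took 0.324% of the column 4 counts, and the median member was at 1.46 CPM over the 6 libraries (interquartile range 0.564 to 3.94, lowest 0.192, highest 169). At or above 1 CPM were 457 members, at or above 10 CPM 68, and at or above 50 CPM 7. Per kilobase of exon, the median over 736 pairs in the scrambled libraries was 0.840 CPM for the antisense RNA and 6.30 CPM for the partner, and the antisense RNA exceeded its partner in 131 of the 736. Summed over all members, the level was 3043 to 3338 CPM in scrambled and 3229 to 3398 CPM in EHMT1 siRNA libraries, so the groups overlapped.

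Only 10 genes supplied 24.1% of the members' counts: VIM-AS1, FGD5-AS1, OIP5-AS1, TUBA1B-AS1, MIF-AS1, GABPB1-AS1, PCBP1-AS1, ENTPD1-AS1, MSC-AS1 and MAGI2-AS3. VIM-AS1, which overlaps the 5′ end of the vimentin gene, a filament protein of mesenchymal cells, was at 137, 187 and 162 CPM in the scrambled and 165, 181 and 184 CPM in the EHMT1 siRNA libraries. Its groups overlapped and it did not pass the test (log2 fold change 0.12, SE 0.09, edgeR adjusted p = 0.408), although without scrambled replicate 2 it did (0.23, adjusted p = 0.00836). FGD5-AS1 was at 132, 106 and 131 CPM against 126, 124 and 122 CPM. There too the groups overlapped (log2 fold change 0.01, adjusted p = 0.941, with a negative sign when scrambled replicate 2 or EHMT1 siRNA replicate 1 was left out). Its partner FGD5, a guanine nucleotide exchange factor known from endothelium, had 0 or 1 count in each library, under the floor, so the antisense RNA was counted where its namesake was not above the floor.

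The remaining abundant members covered both cases. ENTPD1-AS1 was at 46.2, 45.4 and 43.0 CPM against 43.7, 44.7 and 42.9 CPM, and MAGI2-AS3 at 42.7, 40.4 and 37.4 CPM against 39.2, 39.4 and 36.9 CPM. Their partners ENTPD1, an ectonucleotidase, and MAGI2, a scaffold protein of cell junctions, averaged 1.504 ± 0.13 and 2.69 ± 0.16 CPM in the scrambled libraries (SD, n = 3). TUBA1B-AS1, which spans an alpha-tubulin gene, was at 66.4, 88.1 and 80.4 CPM against 68.9, 78.1 and 67.1 CPM. In TUBA1B-AS1, MIF-AS1, PCBP1-AS1 and MSC-AS1 the libraries of the groups overlapped and edgeR adjusted p was 0.236 to 0.830, but TUBA1B-AS1 passed the test without scrambled replicate 1 (log2 fold change -0.24, adjusted p = 0.0375). MSC, the partner of MSC-AS1, encodes musculin, a repressor of myogenic transcription factors, and was at 132 ± 12.1 CPM in scrambled and 124 ± 5.56 CPM in EHMT1 siRNA libraries (SD, n = 3) with no call.

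How much of an antisense count could be partner reads assigned to the wrong strand was estimated first. Over 4559 protein-coding genes with no annotated gene on the other strand and at least 1000 counts, the median share of strand counts found in column 3, the opposite strand, was 5.90% (interquartile range 3.58% to 9.34%). By library that median was 4.98%, 6.999% and 5.92% in the scrambled and 5.46%, 6.51% and 5.52% in the EHMT1 siRNA libraries, highest in the scrambled library that stood apart. For each member, its own column 3 count holds the reads of the partner's strand within its exons. That count was scaled by the ratio of wrong-strand to right-strand reads that the 5.90% share implies. The result estimates the wrong-strand reads in its column 4 count at the median share and is not an upper limit.

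Of the 754 members, 490 had more than 3 times their wrong-strand estimate, 188 had 1 to 3 times and 76 had less. FGD5-AS1 had 301 times its estimate, ENTPD1-AS1 384 times and OIP5-AS1 164 times. VIM-AS1 had 3.43 times, MIF-AS1 3.21 times and PCBP1-AS1 2.64 times, and TUBA1B-AS1 0.943 times, so the count listed for TUBA1B-AS1 was no larger than its partner's misassigned reads could make it. Against a cruder bound that scales the whole count of the partner, 449 of 740 members with a partner lay under it and 189 were above 3 times it.

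**Figure D1:**
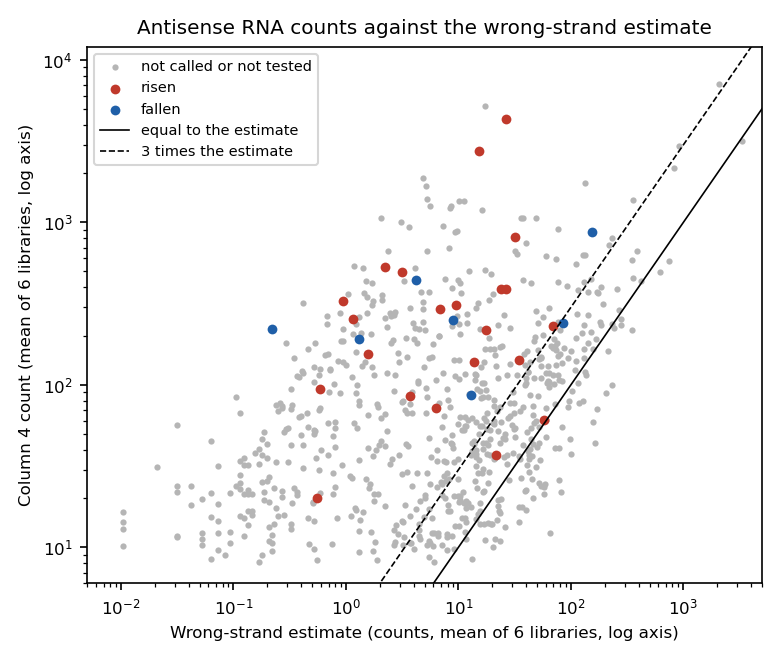
Mean column 4 count of each antisense RNA with an estimate above 0 (vertical, log axis) against its wrong-strand estimate (horizontal, log axis), both means of 6 libraries. Red points rose, blue points fell and grey points were not called or not tested. The solid line marks equality and the dashed line 3 times the estimate. Of the 29 called RNAs, 26 lie above the dashed line and none lies below the solid one.

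Few antisense RNAs differed between the groups. Of the 754 members 746 could be tested among 18725 genes; 22 rose and 7 fell at an edgeR adjusted p under 0.05. That is 3.89% of the members tested, against 12.8% of all genes tested, 6.15% risen and 6.62% fallen. Membership itself depended on counts, so the share is a description. In 134 members (17.96%) no library of one group lay within the range of the other, against 31.1% of all genes tested. The median log2 fold change was 0.05 over the members and 0.0039 over all genes, and 428 of the 746 members (57.4%) had a positive value, against 50.8% of all genes. At an unadjusted p under 0.05 there were 93 members and 4838 of the 18725 genes. With the replicate number as a block in the fit, 46 of the 746 members and 3103 of the 18725 genes were called.

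The share called varied with level. Among genes under 1 CPM, 2 of 289 members (0.692%) and 2.77% of all genes were called. From 1 to 5 CPM the shares were 2.96% (9 of 304) and 6.82%. From 5 to 20 CPM they were 12.1% (15 of 124) and 16.02%, and at 20 CPM and above 10.3% (3 of 29) and 19.02%. The members' share lay under that of all genes in each of the 4 bands, and 289 of the 746 members tested lay in the lowest. Median CPM of members and all genes was 0.477 and 0.455 under 1 CPM, and 2.13 and 2.11 from 1 to 5 CPM. It was unequal from 5 to 20 CPM (7.72 and 10.8) and at 20 CPM and above (30.1 and 60.9). The median SE of the log2 fold change was 0.23 over the members and 0.096 over all genes. The part of level and SE in these shares was not tested.

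The members that clearly exceeded their wrong-strand estimate held most of the calls: 26 of 483 tested (5.38%), with 20 risen, 6 fallen and a median log2 fold change of 0.07. Of 187 members at 1 to 3 times the estimate 3 were called. Of 76 below it edgeR called 0, with 3 at an unadjusted p under 0.05. Other non-coding classes, taken by symbol from all genes tested without the members' count rule, gave different shares. Of 283 tested genes named -DT (divergent transcripts of a promoter) 7 were called (2.47%). Of 325 named LINC (intergenic RNAs) 29 were called (8.92%), of which 25 rose. Those differences between classes were not tested. By arrangement, called members were 8 of 220 head-to-head, 4 of 196 inside the partner, 6 of 140 over its 3′ end, 5 of 115 over its 5′ end and 2 of 50 spanning it, shares of 2.04% to 4.35%.

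**Figure D2:**
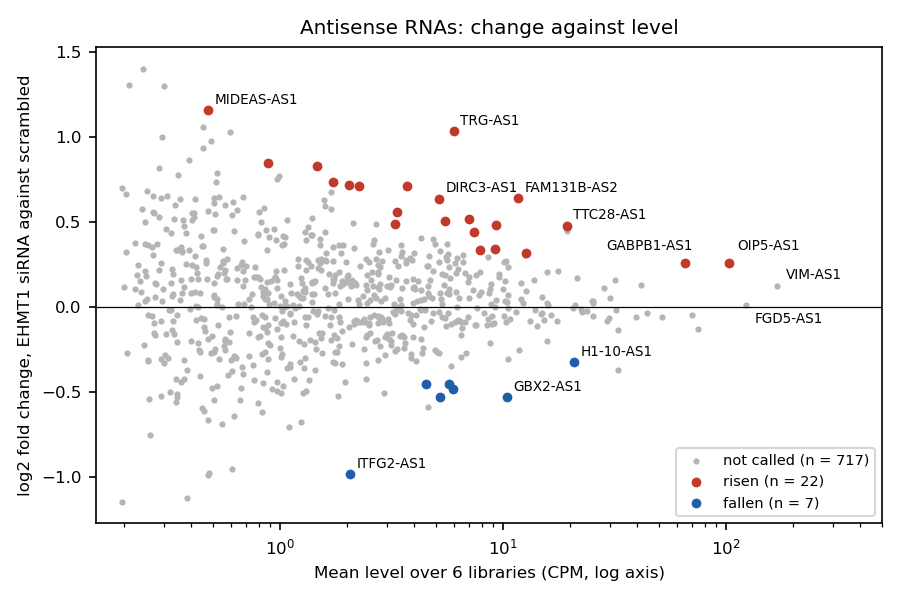
log2 fold change of each of the 746 tested antisense RNAs (EHMT1 siRNA against scrambled, vertical) against its mean level over 6 libraries (CPM, horizontal, log axis), with the 22 risen in red, the 7 fallen in blue and the others in grey. The calls lie between -0.98 and 1.16 on the log2 scale, and the most abundant RNAs, VIM-AS1 and FGD5-AS1, lie near 0 without a call.

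The called changes were modest. Their absolute log2 fold changes ran from 0.26 to 1.16, 2 of the 29 reached 2-fold, and 28 had groups that did not overlap. Taking out each library in turn left between 8 and 44 members called: 25, 44 and 24 without scrambled replicate 1, 2 or 3, and 17, 8 and 13 without EHMT1 siRNA replicate 1, 2 or 3. Of the 29, 8 were called in all 6 of these fits, namely TRG-AS1, TTC28-AS1, FAM131B-AS2, DIRC3-AS1, BCAN-AS2, GBX2-AS1, ITFG2-AS1 and H1-10-AS1; 5 lost the call in 1 or 2 of them and 16 in 3 or more.

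TRG-AS1 (ENSG00000281103), an RNA at the T-cell receptor gamma locus on chromosome 7 with no protein-coding namesake, was at 3.29, 3.29 and 5.31 CPM in scrambled replicates 1, 2 and 3 and at 8.09, 8.67 and 7.55 CPM in EHMT1 siRNA replicates 1, 2 and 3. All 3 EHMT1 siRNA libraries were above all 3 controls, of which replicate 3 was the highest. It rose by a log2 fold change of 1.03 (SE 0.16, edgeR adjusted p = 0.000371), and adjusted p was 5.24e-05 to 0.00684 with a library left out.

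FAM131B-AS2 (ENSG00000232533, chromosome 7) was at 9.75, 8.44 and 9.22 CPM in scrambled and 15.7, 12.4 and 14.6 CPM in EHMT1 siRNA libraries, again without overlap. Its rise was 0.64 (SE 0.10, edgeR adjusted p = 0.000488; 0.000117 to 0.0077 with a library left out). Despite its name the annotation places it on the same strand as FAM131B, which stood at 1.44 ± 0.32 CPM in scrambled and 1.40 ± 0.19 CPM in EHMT1 siRNA libraries (SD, n = 3) and was not called (adjusted p = 0.943).

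TTC28-AS1 (ENSG00000235954, chromosome 22) overlaps the 3′ end of TTC28, a tetratricopeptide repeat gene. Its levels were 16.002, 15.4 and 17.2 CPM in scrambled and 22.2, 22.3 and 23.3 CPM in EHMT1 siRNA libraries. The spread within each group was small beside the gap between them, and the rise of 0.48 (SE 0.07) had an edgeR adjusted p of 0.000445 (0.000105 to 0.00711 with a library left out). TTC28 itself was at 79.9 ± 5.16 against 83.0 ± 3.88 CPM (SD, n = 3) and was not called.

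DIRC3-AS1 (ENSG00000233143, chromosome 2), named after the non-coding gene DIRC3, was at 4.20, 3.67 and 4.24 CPM against 6.17, 5.98 and 6.70 CPM, with no overlap. It rose by 0.64 (SE 0.12, edgeR adjusted p = 0.00248; 0.00219 to 0.0292 with a library left out). BCAN-AS2 (ENSG00000229953, chromosome 1), at the 3′ end of the gene for the brain proteoglycan brevican, was at 2.13, 3.39 and 2.96 CPM against 4.801, 4.45 and 4.55 CPM. The controls were more scattered than the treated libraries. It rose by 0.71 (SE 0.16, edgeR adjusted p = 0.00823; 0.000388 to 0.0483 with a library left out), and BCAN was at 1.15 ± 0.34 against 1.58 ± 0.25 CPM (SD, n = 3) without a call. In the unstranded counts BCAN-AS2 was not called (adjusted p = 0.381).

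PRDM8-AS1 (ENSG00000248719, chromosome 4) rose together with its partner PRDM8, a member of the PR domain family of nuclear proteins related to histone methyltransferases. PRDM8-AS1 was at 5.76, 5.75 and 5.78 CPM in scrambled and 7.47, 8.96 and 8.31 CPM in EHMT1 siRNA libraries. PRDM8 was at 20.1, 19.8 and 19.9 CPM against 26.8, 28.3 and 26.4 CPM. For both genes the controls were nearly equal and every EHMT1 siRNA library was higher. The log2 fold changes were 0.52 (SE 0.11, edgeR adjusted p = 0.00456) and 0.45 (SE 0.07, adjusted p = 0.000352), and the antisense call was lost without EHMT1 siRNA replicate 2 (adjusted p = 0.0541). The antisense RNA had 42.5 times its wrong-strand estimate, and its exons did not overlap those of PRDM8.

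The sequence around the start of PRDM8-AS1 is shown because it is shared ground for the pair: in RefSeq (GRCh38.p14) the nearest PRDM8 start lies 159 bases away on the opposite strand and the genes run apart, whereas the GENCODE 29 starts of the genes are 6290 bases apart. FLRT2-AS1, which also rose with its partner, is placed beside it; its RefSeq start lies 267 bases from the nearest FLRT2 start and the genes run towards each other. Each line gives the strand of the antisense RNA with 250 bases before its start in lower case and the first 50 transcribed bases in capitals, at chr4:80197295-80197594 (minus strand) and chr14:85531610-85531909 (minus strand).
PRDM8-AS1: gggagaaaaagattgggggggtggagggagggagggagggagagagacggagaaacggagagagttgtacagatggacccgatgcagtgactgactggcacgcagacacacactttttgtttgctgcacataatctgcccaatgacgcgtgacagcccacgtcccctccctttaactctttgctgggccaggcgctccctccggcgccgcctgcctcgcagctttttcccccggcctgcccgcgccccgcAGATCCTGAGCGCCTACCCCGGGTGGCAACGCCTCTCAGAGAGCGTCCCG
FLRT2-AS1: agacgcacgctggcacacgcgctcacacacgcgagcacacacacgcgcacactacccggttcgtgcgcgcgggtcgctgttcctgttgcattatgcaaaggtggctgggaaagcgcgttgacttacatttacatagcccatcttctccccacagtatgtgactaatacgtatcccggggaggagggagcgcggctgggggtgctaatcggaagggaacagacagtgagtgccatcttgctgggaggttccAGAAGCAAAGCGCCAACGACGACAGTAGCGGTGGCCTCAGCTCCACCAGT

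These windows held 21 and 25 CG dinucleotides and were 63% and 59% G or C. Neither held TATAAA or CAGCTG on either strand, which says only that these letters are not in the windows. Promoter windows were listed by RefSeq for 547 of the members (642 windows) and 585 of the partners (963 windows). The median number of CG dinucleotides was 20 in the members' windows, 24 in the partners' and 14 in all 35116 promoters. TATAAA, searched on both strands, was in 6.85% of the members' windows and 11.5% of all promoters, and CAGCTG, an E-box form, in 18.5% and 17.95%. Near-by genes can share a window, and these shares are descriptions.

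A pair of abundant antisense RNAs were among the risen. OIP5-AS1 (ENSG00000247556, chromosome 15), also known as Cyrano, is a conserved cytoplasmic RNA with a nearly complete match to the microRNA miR-7, which it is known to mark for decay. The microRNA from RefSeq, with its seed in capitals, and the site in the OIP5-AS1 transcript of GENCODE 29 (starting at base 2869 of 8829), with the bases that pair with the seed in capitals, are shown for that match.
hsa-miR-7-5p: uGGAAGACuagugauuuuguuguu
OIP5-AS1 site: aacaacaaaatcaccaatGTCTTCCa

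OIP5-AS1 was at 97.9, 82.6 and 99.6 CPM in scrambled and 111, 114 and 109 CPM in EHMT1 siRNA libraries. The groups did not overlap, and the lowest library was scrambled replicate 2. It rose by 0.26 (SE 0.07, edgeR adjusted p = 0.0157), or 0.17 without scrambled replicate 2, and lost the call without EHMT1 siRNA replicate 1, 2 or 3 (adjusted p = 0.0758, 0.112 and 0.0593). GABPB1-AS1 (ENSG00000244879, chromosome 15), head-to-head with a subunit gene of the transcription factor GABP, was at 61.5, 53.0 and 64.1 CPM against 70.3, 72.0 and 71.2 CPM. Its pattern across the libraries was much the same: a low scrambled replicate 2, a rise of 0.26 (SE 0.07, edgeR adjusted p = 0.016), 0.18 without that library, and no call without EHMT1 siRNA replicate 1, 2 or 3 (0.0702, 0.101 and 0.0799). Their partners OIP5, a centromere protein gene, and GABPB1 were not called, at 14.2 ± 2.83 against 13.9 ± 0.76 CPM and 24.5 ± 1.92 against 22.7 ± 1.52 CPM (SD, n = 3). Over the 6 libraries the gene whose log2 level was most like that of OIP5-AS1 was CCNG2, a cyclin-related gene (Pearson r = 0.998). FCRLA, PIGG, LINC00960 and BAALC-AS1, itself a member (r = 0.994), followed. These are the highest values of a search over genes of any kind on 6 libraries in 2 groups, so they are a description and show no shared regulation. All share the low scrambled replicate 2, where FCRLA was at 0.0251 CPM, under the floor of 3 counts.

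Other rises were smaller in count or more dependent on 1 library. AP1G2-AS1, over the 5′ end of a gene for a clathrin adaptor subunit, was at 6.98, 9.12 and 7.13 CPM against 10.2, 11.4 and 10.8 CPM and rose by 0.48 (SE 0.11, edgeR adjusted p = 0.00824; 0.0715 without EHMT1 siRNA replicate 2 and 0.261 in the unstranded counts). SLC38A4-AS1, which spans an amino acid transporter gene, was at 1.62, 1.86 and 1.66 CPM against 2.63, 3.21 and 2.57 CPM and rose by 0.71 (SE 0.18, edgeR adjusted p = 0.0128; 0.107 without EHMT1 siRNA replicate 2). TMEM9B-AS1, head-to-head with a lysosomal membrane protein gene, was at 1.64, 1.33 and 1.64 CPM against 2.63, 2.60 and 2.37 CPM and rose by 0.72 (SE 0.18, edgeR adjusted p = 0.014; 0.0753 and 0.0741 without EHMT1 siRNA replicate 1 or 2). None of these 3 overlapped between groups, and their partners AP1G2, SLC38A4 and TMEM9B had edgeR adjusted p of 0.168, 0.689 and 0.174. SLC38A4 was at 397 ± 25.6 CPM in scrambled and 385 ± 10.7 CPM in EHMT1 siRNA libraries (SD, n = 3).

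HOXB-AS1, in the cluster of HOXB homeobox genes on chromosome 17, was at 4.01, 4.997 and 4.57 CPM against 5.58, 7.17 and 6.45 CPM. The groups did not overlap, and it rose by 0.50 (SE 0.13, edgeR adjusted p = 0.0179) with 3.28 times its wrong-strand estimate. The call was lost without scrambled replicate 1 (adjusted p = 0.0647) and without EHMT1 siRNA replicate 2 or 3 (0.146 and 0.0831), and in the unstranded counts, where HOXB reads enter, its log2 fold change was -0.08.

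A further 7 members rose with smaller margins, chosen for mention after their values were seen: CD27-AS1, TPT1-AS1, CTNS-AS1, SBF2-AS1, MIDEAS-AS1, GPR84-AS1 and RTCA-AS1, with log2 fold changes of 0.32 to 1.16 and edgeR adjusted p of 0.019 to 0.0452. Each lost the call in at least 3 of the 6 fits that left out a library, all but RTCA-AS1 were not called in the unstranded counts, and MIDEAS-AS1, GPR84-AS1 and RTCA-AS1 were not called with DESeq2. MIDEAS-AS1, named after a gene of a histone deacetylase complex, had the highest fold change of all called members (1.16, SE 0.35) at the lowest level: 0.320, 0.226 and 0.332 CPM against 0.733, 0.632 and 0.611 CPM. It lost the call in all 6 fits (adjusted p = 0.0631 to 0.168). GPR84-AS1, at 0.632 ± 0.09 against 1.13 ± 0.10 CPM (SD, n = 3), had 1.72 times its wrong-strand estimate.

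**Figure D3:**
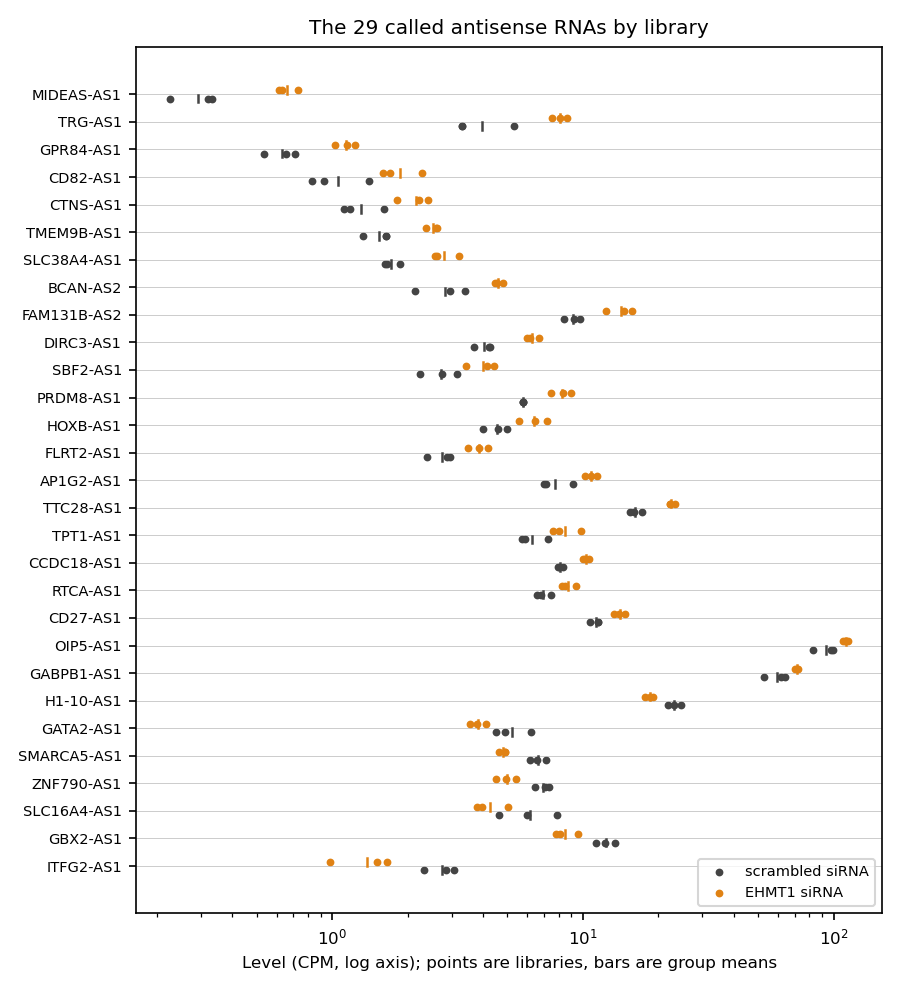
Level of each of the 29 called antisense RNAs in every library (CPM, horizontal, log axis), with scrambled libraries in dark grey, EHMT1 siRNA libraries in orange and a bar at each group mean, ordered by log2 fold change. The groups are apart for 28 RNAs and overlap for SLC16A4-AS1, and in TRG-AS1 1 control, scrambled replicate 3, lies nearer to the EHMT1 siRNA libraries than the others.

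Among the 7 that fell, GBX2-AS1 (ENSG00000233611, chromosome 2) lay head-to-head with the homeobox gene GBX2. It was at 11.3, 13.4 and 12.3 CPM in scrambled and 8.14, 7.80 and 9.56 CPM in EHMT1 siRNA libraries. All treated libraries were below all controls, and it fell by 0.53 on the log2 scale (SE 0.10, edgeR adjusted p = 0.00238; 0.00134 to 0.0278 with a library left out). GBX2 was at 5.85 ± 0.35 against 4.92 ± 0.38 CPM (SD, n = 3), also without overlap of the libraries, but was not called (log2 fold change -0.25, adjusted p = 0.206).

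ITFG2-AS1 (ENSG00000256150, chromosome 12), head-to-head with ITFG2, a gene of a complex that regulates mTORC signalling, showed the deepest fall. Its levels were 2.33, 2.84 and 3.06 CPM against 1.51, 1.65 and 0.978 CPM. The groups were apart, with a log2 fold change of -0.98 (SE 0.21; edgeR adjusted p = 0.00485; 0.00249 to 0.0417 with a library left out). ITFG2 was level, at 26.7 ± 0.17 against 26.2 ± 1.21 CPM (SD, n = 3, adjusted p = 0.842). On opposite strand column 3 the count of ITFG2-AS1 fell as well (log2 fold change -0.95, edgeR adjusted p = 0.0001975). The fall was therefore seen on both strand columns, and its source was not tested. In the unstranded counts ITFG2-AS1 could not be tested.

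ZNF790-AS1 (chromosome 19), at the 3′ end of a zinc finger gene, was at 7.30, 6.43 and 7.08 CPM against 4.52, 4.96 and 5.43 CPM and fell by 0.48 (SE 0.12, edgeR adjusted p = 0.012; 0.0782 and 0.057 without EHMT1 siRNA replicate 1 or 2). SLC16A4-AS1 (chromosome 1), inside a gene of the monocarboxylate transporter family, was at 5.995, 4.62 and 7.87 CPM against 5.04, 3.96 and 3.79 CPM. This was the only called member whose groups overlapped: EHMT1 siRNA replicate 1 exceeded scrambled replicate 2. It fell by 0.53 on the log2 scale (SE 0.17; edgeR adjusted p = 0.0499), a call not reached without scrambled replicate 1 or 3 (0.107 and 0.234) or EHMT1 siRNA replicate 2 or 3 (0.19 and 0.198). Upper-quartile factors (0.0586), a filter of 1 CPM (0.0529), limma-voom (0.0712) and wrong-strand subtraction (0.0563) also ended the call.

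The sense partners followed the general share of calls. Of 684 partner genes tested 51 rose and 53 fell (15.2%), against 12.8% of all genes and 16.3% of 13531 protein-coding genes tested; their median log2 fold change was -0.0059. For the 29 called antisense RNAs, 25 had a tested partner, and 7 of those partners were called. Over 693 pairs with both genes tested, both rose in 3, both fell in 3, and the antisense RNA rose while the partner fell in 1. The antisense RNA alone rose in 14 pairs and fell in 4, and the partner alone rose in 48 and fell in 49. In the other 571 neither was called.

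The pairs that rose together were PRDM8-AS1, FLRT2-AS1 and CD82-AS1 with their partners. FLRT2-AS1 (chromosome 14), head-to-head with the gene of a leucine-rich repeat adhesion protein, was at 2.94, 2.39 and 2.87 CPM in scrambled and 3.86, 3.47 and 4.18 CPM in EHMT1 siRNA libraries. FLRT2 was at 77.1, 66.6 and 67.9 CPM against 89.7, 88.4 and 84.5 CPM. Neither gene overlapped between groups. The log2 fold changes were 0.49 (SE 0.15, edgeR adjusted p = 0.0455) and 0.31 (SE 0.06, adjusted p = 0.00337). The antisense call was lost in the fits without scrambled replicate 2 or 3 (0.0802 and 0.0703) and without EHMT1 siRNA replicate 1, 2 or 3 (0.152, 0.0843 and 0.216). Nor was it reached with DESeq2 (0.0659), limma-voom (0.0507) or after subtraction of the wrong-strand estimate (0.0562).

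CD82-AS1 (chromosome 11) lies inside CD82, the gene of a tetraspanin membrane protein. It was at 0.832, 1.41 and 0.924 CPM against 1.70, 2.28 and 1.59 CPM, and CD82 at 103, 98.7 and 114 CPM against 141, 137 and 144 CPM. Both rose, by 0.83 (SE 0.24, edgeR adjusted p = 0.0335) and 0.42 (SE 0.06, adjusted p = 0.000187), with no overlap of the groups. The antisense count was only 1.05 times its wrong-strand estimate. After subtraction of that estimate too few counts were left for it to be tested, and its call was lost in every fit that left out a library other than scrambled replicate 2 (adjusted p = 0.0603 to 0.213).

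In 3 pairs both genes fell. H1-10-AS1 (ENSG00000206417, chromosome 3), head-to-head with a linker histone gene, was at 21.8, 24.5 and 23.1 CPM in scrambled and 17.7, 18.5 and 19.1 CPM in EHMT1 siRNA libraries. H1-10 was at 112, 131 and 131 CPM against 96.0, 104 and 110 CPM. In both the groups were apart, and the changes were -0.33 (SE 0.07, edgeR adjusted p = 0.00753; 0.00564 to 0.04999 with a library left out) and -0.27 (SE 0.07, adjusted p = 0.014). The call of H1-10 was lost without scrambled replicate 3 (0.0512) or EHMT1 siRNA replicate 1 or 2 (0.0951 and 0.0639), and in the unstranded counts H1-10-AS1 was at a log2 fold change of 0.16 with no call.

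SMARCA5-AS1 (chromosome 4) lies inside SMARCA5, which encodes the ATPase of ISWI chromatin remodelling complexes. It was at 6.17, 7.11 and 6.54 CPM against 4.87, 4.91 and 4.65 CPM, and SMARCA5 at 331, 312 and 296 CPM against 265, 273 and 265 CPM. The groups of both were apart. The changes were -0.46 (SE 0.12, edgeR adjusted p = 0.0152) and -0.23 (SE 0.06, adjusted p = 0.012), with 2.85 times the wrong-strand estimate in the antisense RNA. Without EHMT1 siRNA replicate 1, 2 or 3 the antisense call was lost (0.0566, 0.0594 and 0.0771), and without replicate 1 or 3 that of SMARCA5 (0.0623 and 0.0677); the antisense RNA was not called in the unstranded counts (0.0766).

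GATA2-AS1 (chromosome 3), over the 5′ end of the gene for the transcription factor GATA2, was at 6.23, 4.90 and 4.50 CPM against 3.78, 3.55 and 4.11 CPM. GATA2 was at 14.3, 14.8 and 11.97 CPM against 10.2, 10.3 and 11.4 CPM. The groups did not overlap, and the changes were -0.45 (SE 0.14, edgeR adjusted p = 0.0481) and -0.36 (SE 0.10, adjusted p = 0.0198). The antisense RNA lost its call without scrambled replicate 1 (0.195) or EHMT1 siRNA replicate 1, 2 or 3 (0.135, 0.186 and 0.0899), and that of GATA2 without scrambled replicate 1 (0.0602) or EHMT1 siRNA replicate 1 or 2 (0.0894 and 0.0971). GATA2-AS1 was also not called with upper-quartile factors (0.0527), DESeq2 (0.0533), limma-voom (0.0596) or unstranded counts (0.0878).

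The 1 pair called in opposite directions was CCDC18-AS1 and CCDC18, named here after its values were seen. CCDC18-AS1 (chromosome 1), which overlaps the 3′ end of CCDC18, a coiled-coil protein gene, was at 7.94, 8.06 and 8.36 CPM against 10.2, 10.6 and 9.97 CPM. CCDC18 was at 46.0, 43.7 and 41.3 CPM against 36.1, 39.6 and 35.7 CPM. Every treated library was above every control for the antisense RNA and below for the partner. The changes were 0.34 (SE 0.09, edgeR adjusted p = 0.0227) and -0.23 (adjusted p = 0.0259). The antisense call was lost without scrambled replicate 1 (0.0501) or EHMT1 siRNA replicate 1, 2 or 3 (0.102, 0.135 and 0.0809), and that of CCDC18 without scrambled replicate 1 (0.0752) or EHMT1 siRNA replicate 1 or 3 (0.113 and 0.127).

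**Figure D4:**
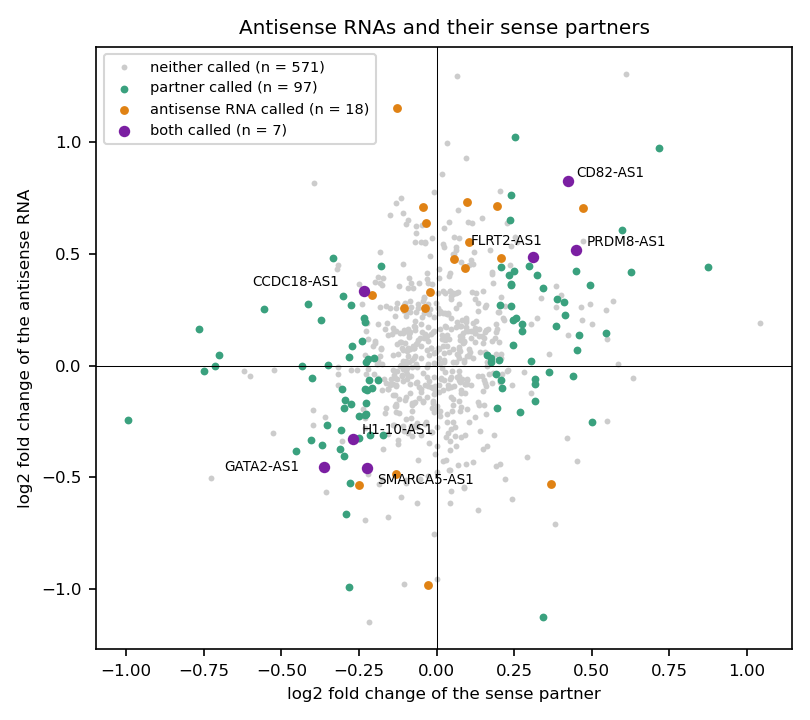
log2 fold change of the antisense RNA (vertical) against that of its sense partner (horizontal) for 693 pairs, each point 1 pair; grey pairs have no call, green the partner alone, orange the antisense RNA alone and purple both. Of the 7 purple pairs 6 have both genes on the same side of 0 and 1, CCDC18-AS1, has them on opposite sides.

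Over the 693 pairs the log2 fold changes of antisense RNA and partner had a Pearson r of 0.22 and a Spearman rho of 0.22, and 395 pairs (57.0%) shared the sign. Pairs are not independent replicates: all come from the same 6 libraries, and wrong-strand reads of the partner can enter the antisense count. Where the antisense count was more than 3 times its wrong-strand estimate (442 pairs) r was 0.18, and where it was not (251 pairs) r was 0.32. By arrangement r was 0.15 for 217 head-to-head pairs, 0.17 for 194 pairs with the antisense RNA inside the partner, 0.36 for 132 that overlapped the 3′ end, 0.22 for 107 that overlapped the 5′ end and 0.38 for 32 in which it spanned the partner. For the antisense RNAs inside their partner, r was -0.02 over the 86 pairs with more than 3 times the estimate. The differences between these values were not tested.

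Within each library the ratio of antisense to partner shows whether the pair moved unequally, without any scaling between libraries. Of 400 pairs with both genes at 1 CPM or more, the ratios of the groups did not overlap in 87 (21.8%), higher with EHMT1 siRNA in 58 and lower in 29. No such share was taken over other pairs of genes. For the levels of single genes, the groups did not overlap in 31.1% of all genes tested. The counts of ratios are therefore a description. With 3 libraries a group, the exact two-sided permutation test cannot give a p below 0.1, so no single ratio could pass a threshold of 0.05.

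The widest differences came from either side of the pair. In ITFG2-AS1 it was the antisense RNA: its log2 ratio to ITFG2 was -3.46, -3.20 and -3.08 in the scrambled and -4.02, -3.98 and -4.55 in the EHMT1 siRNA libraries, a difference of -0.93. In ZNF667-AS1 and ZNF667, a head-to-head pair with a zinc finger gene on chromosome 19, it was the partner. ZNF667-AS1 was at 28.8, 30.01 and 29.9 CPM against 31.0, 31.9 and 28.9 CPM (log2 fold change 0.05, edgeR adjusted p = 0.702), while ZNF667 was at 24.2, 19.9 and 23.3 CPM against 13.95, 13.9 and 13.7 CPM and fell by 0.70 (SE 0.08, edgeR adjusted p = 3.57e-05). The log2 ratio was 0.25, 0.59 and 0.36 in scrambled and 1.15, 1.19 and 1.07 in EHMT1 siRNA libraries, so the antisense RNA had more counts than its partner in all 6.

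In NR2F2-AS1 and RALY-AS1 the values of antisense RNA and partner differed in opposite directions. NR2F2-AS1, over the 5′ end of the gene for the nuclear receptor COUP-TFII, was at 0.768, 1.51 and 1.64 CPM against 1.99, 2.04 and 2.18 CPM (log2 fold change 0.68, edgeR adjusted p = 0.0776). Adjusted p was 0.0262 without scrambled replicate 2 and 0.0527 to 0.232 without any other library, and without scrambled replicate 1 the change was 0.39. NR2F2 was at 78.4 ± 6.28 against 70.6 ± 1.57 CPM (SD, n = 3) with no call, and the log2 ratio was higher by 0.84. RALY-AS1, head-to-head with the gene of an RNA-binding protein of the hnRNP family, was at 2.01, 2.29 and 2.44 CPM against 3.41, 3.18 and 2.81 CPM (log2 fold change 0.48, adjusted p = 0.062). RALY fell, from 261, 303 and 268 CPM to 220, 219 and 221 CPM (log2 fold change -0.33, SE 0.06, edgeR adjusted p = 0.00129), and the log2 ratio was higher by 0.80 with no overlap.

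USP2-AS1, whose start is 52 bases from that of the deubiquitinase gene USP2 in GENCODE 29, was at 3.37, 3.54 and 3.37 CPM against 2.89, 1.99 and 2.35 CPM. It lay just outside the threshold (log2 fold change -0.51, SE 0.17, edgeR adjusted p = 0.0546). With a library left out adjusted p was 0.0441 (without EHMT1 siRNA replicate 1) to 0.241 (without replicate 2, where the change was -0.40), and in the unstranded counts 0.0335. USP2 was at 4.05 ± 0.60 against 4.71 ± 0.19 CPM (SD, n = 3), and the log2 ratio was lower by 0.73. In the GPAT4 pair the partner moved: GPAT4, a glycerolipid synthesis enzyme gene, fell by 0.75 (SE 0.05, edgeR adjusted p = 1.64e-07) from 177, 181 and 167 CPM to 105, 103 and 104 CPM. GPAT4-AS1 was at 1.11, 1.86 and 1.28 CPM against 1.30, 1.51 and 1.35 CPM, but this was 0.375 times its wrong-strand estimate.

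**Figure D5:**
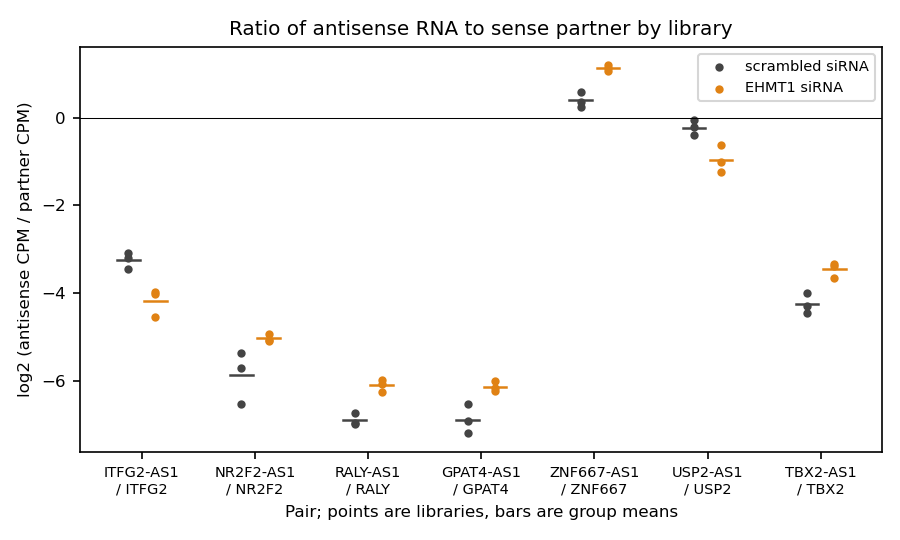
log2 of antisense CPM over partner CPM (0.1 CPM added to both, vertical) in each library for 7 pairs, with scrambled libraries in dark grey, EHMT1 siRNA libraries in orange and bars at the group means. The ratio is higher with EHMT1 siRNA in 5 pairs and lower for ITFG2-AS1 and USP2-AS1, and in none do the groups overlap. All pairs but that of TBX2-AS1 were chosen as the widest differences without overlap, so their lack of overlap was set by the choice.

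For the antisense RNAs of the targeted enzyme's partner and of TBX2, a T-box repressor gene, there was no call. EHMT2-AS1 was at 2.496, 3.64 and 3.01 CPM against 2.13, 3.06 and 2.15 CPM, with overlap (log2 fold change -0.31, SE 0.19, edgeR adjusted p = 0.324) and 1.49 times its wrong-strand estimate; in the unstranded counts the log2 fold change was 0.53. EHMT2 fell from 122.8 ± 7.23 to 106 ± 1.47 CPM (SD, n = 3; log2 fold change -0.21, edgeR adjusted p = 0.0186), with edgeR adjusted p above the threshold in each fit that lacked 1 EHMT1 siRNA library (0.0899, 0.0748 and 0.071). TBX2-AS1, which spans TBX2, was at 1.39, 0.879 and 0.972 CPM against 0.780, 0.923 and 1.05 CPM, with overlap (log2 fold change -0.24, SE 0.26, adjusted p = 0.622) and 102 times its estimate. TBX2 fell from 23.5, 21.4 and 21.1 CPM to 11.1, 10.2 and 11.9 CPM (log2 fold change -0.99, SE 0.08, edgeR adjusted p = 9.15e-07), so the log2 ratio was higher by 0.79 and did not overlap.

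Genes of the pathways that make or clear antisense RNA were described from 3 lists. Of 28 tested genes of the RNA exosome and nuclear RNA surveillance 0 rose and 2 fell, where 12.8% of all genes were called (median log2 fold change -0.08, against 0.0039 over all genes). Those were the exosome core subunits EXOSC9, from 47.4 ± 4.27 to 38.5 ± 0.97 CPM (SD, n = 3; log2 fold change -0.30, edgeR adjusted p = 0.00733), and EXOSC5, from 37.8 ± 3.36 to 30.8 ± 0.97 CPM (-0.30, 0.0101; 0.0674 without EHMT1 siRNA replicate 2).

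Of 28 tested genes of the Integrator complex and of transcription termination 1 rose and 3 fell, near the 12.8% called among all genes (median log2 fold change 0.00 to 2 decimals). INTS10 and INTS3, Integrator subunits, fell by 0.35 and 0.27 on the log2 scale (SE 0.06 and 0.05, edgeR adjusted p = 0.000494 and 0.00325), and CPSF4, a cleavage and polyadenylation factor, by 0.29 (SE 0.06, adjusted p = 0.0042). INTS4 rose by 0.20 (adjusted p = 0.0462), a call lost in 5 of the 6 fits that left out a library, all but that without scrambled replicate 1 (adjusted p = 0.0717 to 0.219).

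Of 25 tested genes of double-stranded RNA sensing, editing and small RNA processing 4 rose and 1 fell, beside 6.15% risen and 6.62% fallen among all genes (median log2 fold change 0.03). AGO4, an Argonaute protein, rose by 0.41 on the log2 scale (SE 0.09, edgeR adjusted p = 0.00877; 0.0825 without EHMT1 siRNA replicate 2), and IFIH1, the sensor MDA5, fell by 0.26 (0.0194; 0.124 and 0.0615 without EHMT1 siRNA replicate 1 or 2). OAS1, an oligoadenylate synthetase, and the signalling adaptor MAVS rose by 0.28 and 0.17 (adjusted p = 0.0433 and 0.0431) and each lost the call in 4 of the 6 fits that left out a library (up to 0.303 and 0.208).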

How the data were processed

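Poly-A RNA libraries of RD cells were used, 3 per group. The authors deposited raw counts per gene for each library, with no normalization, in the layout of the STAR gene count table: column 2 unstranded, columns 3 and 4 one per strand. The submitters' processing notes name STAR 2.5, HTSeq 0.6.1, DESeq2 and the build hg19; the annotation release is not given in the sources used here. Since the identifiers are later than that build, no coordinates of counted genes are given; pair arrangement, exon lengths and chromosomes come from GENCODE 29 (GRCh38), which held 750 of the 754 members, and promoter windows from RefSeq (GRCh38.p14).

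Column 4, which held 87.1% to 89.0% of the strand counts, was used throughout; the kit named in the labels is not described as directional. Reads that named no gene (19.5% to 21.7%) stayed out. Tests were run in edgeR 4.0.16 (R 4.3.3) after filterByExpr at a minimum count of 10 and TMM scaling: a quasi-likelihood F test between the groups, fitted robustly and without covariates, adjusted by Benjamini-Hochberg over all 18725 genes tested (threshold 0.05). The SE was taken as |log2 fold change| over the square root of F. CPM values use TMM factors; ratios had 0.1 CPM added to both genes. Floors cover counting error only. Replicates of a group differed by more than sampling noise (chi-square per degree of freedom 2.88 to 19.8), so each counted once; p-values measure the spread between these libraries, which may be technical. Alternatives, including DESeq2 1.42.0 and limma 3.58.1 voom, are in the closing section; the local wrong-strand estimate and its subtraction were added after seeing the data.

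The members and lists were chosen with earlier results of these data known. Named genes were up to 12 called members per direction by adjusted p, the 10 with most counts, up to 6 pairs with both genes called, up to 6 with the widest non-overlapping ratio difference at 1 CPM or more, EHMT2-AS1, TBX2-AS1 and up to 3 genes per list; others are marked, and 1 list gene that this rule names is not reported here. Antisense, overlapping and near-identical genes, such as tubulin genes, share reads that counting may split, so their values are uncertain. The scripts were tested on simulated data.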

Additional observations from a re-analysis of the deposited data

How the results depend on the processing

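Of the 29 called antisense RNAs, 5 (TRG-AS1, TTC28-AS1, FAM131B-AS2, GBX2-AS1 and DIRC3-AS1) kept their call under all 15 alternatives other than the opposite strand column, 8 lost it or could not be tested under 1 or 2 and 16 under 3 or more. Members called (29; 22 risen, 7 fallen) numbered 10 (7, 3) at adjusted p under 0.01, 14 (10, 4) with more than 3 times the cruder partner bound, 9 (7, 2) on opposite strand column 3, and 8 to 44 (risen 5 to 35, fallen 3 to 9) with a library left out; 4 fell on unstranded column 2. Called partners (104) numbered 51, 9 (column 3) and 43 to 167, and all called genes (2391) 1111, 177 and 1061 to 3464. With RLE or upper-quartile factors, other filters, DESeq2 or voom, members called were 25 to 32, of which 24 to 29 were among the 29. Unstranded column 2 called 24 members, 15 of the 29 and 9 new ones. Column 3 kept 3 and added 6, and the fit without scrambled replicate 2 kept 25 and added 19. The EHMT1 change (-1.31) lay between -1.25 and -1.43 under every alternative run.

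Deviations from the group mean correlated weakly between same-numbered libraries, by 0.0501 to 0.0989, and by -0.07145 to -0.01415 between differently numbered ones. Each library thus correlated best with its own number. Unmapped reads were 2.536% and 2.543% in scrambled and EHMT1 siRNA replicate 1, and 3.111% and 3.121% in replicate 2. In replicate 3 they were 3.275% and 2.965%. The wrong-strand share was highest in replicate 2 of both groups. These values do not decide whether the replicate numbers pair the libraries, and the reported fit does not use the numbers. With the replicate number as a block, 46 members were called, 33 risen and 13 fallen, and EHMT1 was at -1.31; 147 partners were called. RALY-AS1, NR2F2-AS1 and USP2-AS1, not called in the reported fit, passed the test with the block (adjusted p = 0.047, 0.0262 and 0.03105).

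The sign of a log2 fold change turned on column 3 for DIRC3-AS1 (-0.30), SLC38A4-AS1 (-0.24), OIP5-AS1 (-0.0786), GABPB1-AS1 (-0.0288), MSC-AS1 (-0.0689), ENTPD1-AS1 (0.25), ZNF667-AS1 (-0.0553) and GPAT4-AS1 (0.057), and on column 2 for HOXB-AS1 (-0.0776), H1-10-AS1 (0.16), MIF-AS1 (0.0412), PCBP1-AS1 (0.0172), ENTPD1-AS1 (0.13), ZNF667-AS1 (-0.0125), EHMT2-AS1 (0.53) and the ITFG2-AS1 ratio (0.0828). Both columns hold reads of the other strand by construction. It also turned for uncalled members: FGD5-AS1 without scrambled replicate 2 or EHMT1 siRNA replicate 1 (leave-one-out range -0.0895 to 0.0639), MIF-AS1 without scrambled replicate 2 (-0.18 to 0.0613), and GPAT4-AS1 with voom (0.0163) or without scrambled replicate 2 or EHMT1 siRNA replicate 1 (-0.18 to 0.21). The cause was not tested. Of 289 tested members under 1 CPM 2 were called (0.692%), against 2.77% of all genes at that level; the part of depth was not tested.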
